A study of Homo sapiens with 6 samples.

Results

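Arginine, urea cycle and polyamine genes were followed in SCC25, a cultured human line derived from tongue squamous carcinoma. The 10 genes were ASS1, ASL, ARG2, OAT, ODC1, OAZ1, AMD1, SRM, SMS and SAT1, found by symbol among the 26524 genes of the count table. All 10 were present and all 10 passed the filter on low counts, as did 14964 genes in all. The genes were chosen from earlier results of these same libraries, with the difference between shLIS1 and control in view. Their differences between the groups are therefore given as a description with a standard error, and which of them passed the threshold of the fit across all genes is counted once, without being read as a result.

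The shLIS1 group held 3 libraries of SCC25 cells labelled as a LIS1 knockdown by short hairpin, and the control group held 3 libraries of SCC25 cells labelled as control. LIS1 is the protein of PAFAH1B1, a partner of the dynein motor. No label says whether the control cells carried a hairpin, whether the numbered shLIS1 libraries came from 1 hairpin or several, or whether libraries came from separate cultures, so the spread between them may be technical. All 6 libraries carry the same batch label. Total counts were between 15661916 and 22790599 per library.

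Arginine is made from citrulline by ASS1 and ASL and is broken down to ornithine by arginase. Ornithine can go to glutamate and proline, or through ODC1 to putrescine, the start of the polyamines spermidine and spermine. Polyamines are small cations that bind nucleic acids, and dividing cells keep their level within narrow bounds through ODC1, its inhibitor antizyme and the acetylase SAT1. Many tumours and cell lines differ in whether they make ASS1, which decides whether they depend on arginine from outside.

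The promoters are shown because 3 of the 10 genes, ASS1, SRM and ODC1, carried an E-box, CACGTG, at a start site, the sequence that MYC, HIF1A and related factors are known to bind. ASS1 was also among the genes with the largest difference between the groups, while ODC1 had nearly the same level in both. RefSeq windows of build GRCh38.p14, from 250 bases before to 50 bases after a start, were found for 10 of 10 genes, with 14 windows in all. The windows of ASS1 (chr9:130444711-130445010, plus strand) and SRM (chr1:11059969-11060268, minus strand) lie at or within 2 bases of the gene start in the count table. ASS1 has another RefSeq window, at a start 254 bases farther upstream, which holds no E-box. The ODC1 window shown (chr2:10447963-10448262, minus strand) belongs to a start 315 bases inside the gene. ARG2 (chr14:67619670-67619969, plus strand) and AMD1 (chr6:110874535-110874834, plus strand) are the genes with the lowest and the highest log2 ratio of the 10. Capitals mark the E-box in ASS1, SRM and ODC1, and the cyclic AMP response element TGACGTCA in ARG2, and the AMD1 window has no capitals.
ASS1: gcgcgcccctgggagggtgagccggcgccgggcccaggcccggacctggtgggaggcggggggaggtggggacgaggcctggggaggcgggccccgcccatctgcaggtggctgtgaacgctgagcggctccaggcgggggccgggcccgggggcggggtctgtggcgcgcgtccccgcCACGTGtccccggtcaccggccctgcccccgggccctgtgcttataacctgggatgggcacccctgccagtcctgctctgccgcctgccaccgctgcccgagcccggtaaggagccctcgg
SRM: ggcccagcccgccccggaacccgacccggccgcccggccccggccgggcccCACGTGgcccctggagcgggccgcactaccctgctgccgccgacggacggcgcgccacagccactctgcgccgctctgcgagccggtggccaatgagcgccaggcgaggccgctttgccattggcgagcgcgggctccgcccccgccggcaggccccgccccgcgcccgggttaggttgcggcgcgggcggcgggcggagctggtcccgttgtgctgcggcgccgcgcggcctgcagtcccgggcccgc
ODC1: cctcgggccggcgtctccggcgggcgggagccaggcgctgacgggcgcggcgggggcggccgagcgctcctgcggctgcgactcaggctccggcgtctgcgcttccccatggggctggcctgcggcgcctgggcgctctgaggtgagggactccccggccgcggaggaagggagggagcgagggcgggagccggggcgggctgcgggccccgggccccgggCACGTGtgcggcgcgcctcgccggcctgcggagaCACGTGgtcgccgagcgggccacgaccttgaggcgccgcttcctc
ARG2: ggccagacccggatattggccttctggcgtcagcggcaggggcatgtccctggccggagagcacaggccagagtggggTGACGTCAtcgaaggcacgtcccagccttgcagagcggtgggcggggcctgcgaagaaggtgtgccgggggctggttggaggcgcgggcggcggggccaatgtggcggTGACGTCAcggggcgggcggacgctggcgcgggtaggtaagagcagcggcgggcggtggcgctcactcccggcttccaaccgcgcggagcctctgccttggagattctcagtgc
AMD1: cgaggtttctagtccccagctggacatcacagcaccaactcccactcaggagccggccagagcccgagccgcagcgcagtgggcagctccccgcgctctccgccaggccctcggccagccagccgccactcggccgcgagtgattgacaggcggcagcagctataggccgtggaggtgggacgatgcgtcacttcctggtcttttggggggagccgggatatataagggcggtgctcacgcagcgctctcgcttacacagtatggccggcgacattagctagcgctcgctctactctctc

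The E-box, which reads the same on both strands, was in 7.26% of all 35116 windows and in 8.77% of the 27305 genes they belong to. It began 71 bases before the start in ASS1 and 199 bases before it in SRM, and ODC1 held 1 copy 29 bases before its inner start and 1 just after it. Motifs were searched on both strands. TGATGNAA, the core of the amino acid response element of ATF4, was in none of the 14 windows and in 3.62% of all. TGACNNNGC, the core of the antioxidant element, was in the ODC1 window at the outer start and in the OAT window, and in 13.3% of all windows and 16.1% of genes. TGACGTCA was searched after the ARG2 window had been read, and was in 1.85% of all windows. It began 172 and 64 bases before the ARG2 start. A match here is a run of letters, not a bound site.

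PAFAH1B1, the hairpin's target, had 111, 109 and 113 CPM in shLIS1 libraries 1 to 3, against 157, 165 and 154 CPM in control libraries 1 to 3. CPM is the read count scaled to a common library total, with totals adjusted by the trimmed mean of M-values (TMM). The log2 ratio here and below is the log2 fold change, shLIS1 over control. All 3 shLIS1 libraries lay below all 3 control libraries, with a log2 ratio of -0.52 (SE 0.05, edgeR adjusted p = 6.5e-08). All 9 squamous epithelial markers were detected, and their summed level was 12117 to 13074 CPM in shLIS1 and 13374 to 13666 CPM in control. Fibroblast markers summed to 13.3 to 15.8 CPM in shLIS1 and 17.1 to 21.9 CPM in control. Endothelial markers, nearly all of it CDH5, gave 7.15 to 8.54 CPM in shLIS1 and 12.8 to 17.1 CPM in control, and leukocyte markers, nearly all of it CD14, gave 7.81 to 8.96 CPM in shLIS1 and 13.8 to 14.8 CPM in control. The part of these markers in the differences below was not tested. In bulk libraries, fewer cells with a transcript and less of it per cell cannot be told apart.

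The genes that make and break down arginine were lower in shLIS1, ASS1 and ARG2 most of all. ASS1 (chromosome 9, 130444961 to 130501274, plus strand, build hg 38 as for all genes here) joins citrulline and aspartate to argininosuccinate. Its level was 339, 356 and 363 CPM in shLIS1 libraries 1 to 3, against 755, 711 and 745 CPM in control libraries 1 to 3. The highest shLIS1 library lay far below the lowest control library. The mean was 353 ± 12.5 CPM in shLIS1 and 737 ± 23.3 CPM in control (SD, n = 3 each), so that 47.9% of the control level was left, with a log2 ratio of -1.06 (SE 0.05). Among the 10 genes it supplied 17.4% ± 0.888 of the summed CPM in shLIS1 and 27.2% ± 0.904 in control (SD, n = 3 each).

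ASL (chromosome 7, 66075800 to 66094697, plus strand), which splits argininosuccinate into arginine and fumarate, was expressed at a far lower level. It had 12.7, 9.84 and 10.2 CPM in shLIS1, against 13.98, 16.9 and 13.0 CPM in control. The groups came close without overlapping, since shLIS1 library 1 was just under control library 3. The log2 ratio was -0.42 (SE 0.12), and -0.29 without control library 2. ASS1 had 2675, 3618 and 3552 reads per 100 ASL reads in shLIS1, and 5399, 4205 and 5752 in control. The ratio of ASS1 to ASL reads was thus lower in every shLIS1 library, and ASS1 differed more than ASL.

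ARG2, the mitochondrial arginase, had the lowest log2 ratio of the 10 genes. It had 117, 110 and 156 reads in shLIS1, or 5.43, 6.22 and 6.76 CPM, against 266, 293 and 284 reads in control, or 17.1, 14.6 and 13.9 CPM. No shLIS1 library came near a control library. The mean was 6.14 ± 0.669 CPM in shLIS1 and 15.2 ± 1.65 CPM in control (SD, n = 3 each), a log2 ratio of -1.30 (SE 0.12). The 3′ end of ARG2 (chromosome 14, 67619920 to 67651708, plus strand) overlaps VTI1B on the minus strand by 4624 bases. VTI1B had 50.2 ± 5.201 CPM in shLIS1 and 57.1 ± 2.96 CPM in control (SD, n = 3 each, log2 ratio -0.19). No source used here says whether reads were counted by strand, so the ARG2 counts are uncertain.

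OAT (chromosome 10, 124397303 to 124418976, minus strand), the mitochondrial aminotransferase that links ornithine to glutamate and proline, had 178, 179 and 169 CPM in shLIS1, against 212, 230 and 220 CPM in control. The groups were apart and the libraries of each were close together. The log2 ratio was -0.33 (SE 0.05). ARG2, which makes ornithine, gave 3.51 ± 0.469 reads per 100 reads of OAT in shLIS1 and 6.90 ± 0.977 in control (SD, n = 3 each).

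**Figure D1:**
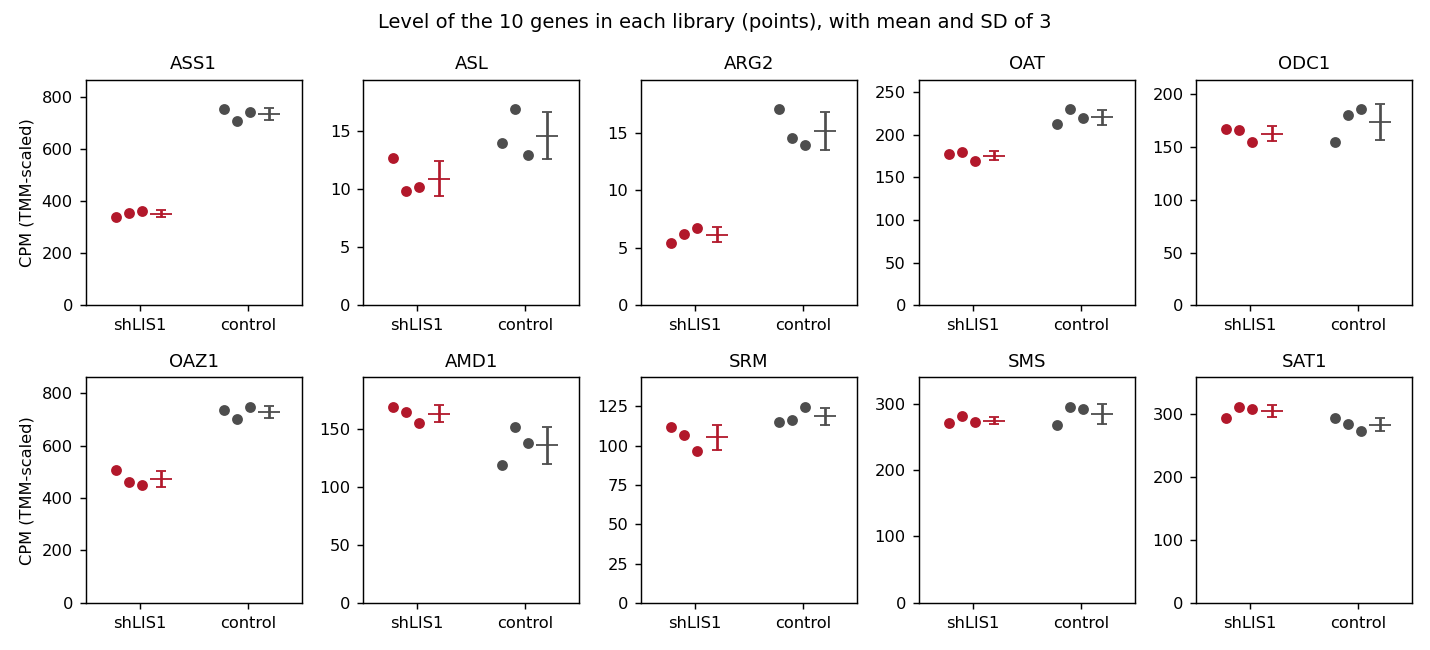
Level of each of the 10 genes in CPM (vertical axis, from 0) in the 3 shLIS1 libraries (left, red) and the 3 control libraries (right, grey), with mean and SD beside the points. ASS1, ARG2 and OAZ1 show wide gaps between the groups, while ODC1 and SMS overlap.

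At the entry to the polyamines, the libraries of the 2 groups overlapped for the enzyme and were apart for its inhibitor, which was lower in shLIS1. ODC1 (chromosome 2, 10439968 to 10448327, minus strand) decarboxylates ornithine to putrescine. It had 167, 167 and 155 CPM in shLIS1, against 154, 181 and 186 CPM in control. The groups overlapped, because control library 1 was below all shLIS1 libraries. The log2 ratio was -0.10 (SE 0.06), with a 95% interval of -0.22 to 0.03. It was -0.18 without control library 1, which took it past the threshold of the fit, and -0.040 without control library 3.

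OAZ1 (chromosome 19, 2269509 to 2273490, plus strand) encodes antizyme, which binds ODC1, directs it to the proteasome and also limits polyamine uptake, and whose full-length translation depends on a polyamine-stimulated frameshift. It had 506, 460 and 450 CPM in shLIS1, against 738, 703 and 748 CPM in control. Every shLIS1 library was well below every control library. The mean was 472 ± 29.9 CPM in shLIS1 and 730 ± 23.7 CPM in control (SD, n = 3 each), a log2 ratio of -0.63 (SE 0.05).

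Within a library, ODC1 had 33.0, 36.2 and 34.4 reads per 100 OAZ1 reads in shLIS1, against 20.9, 25.7 and 24.9 in control. The groups did not overlap, and the mean ratio was 1.45 times that of control. This ratio compares transcripts inside 1 library and does not depend on the scaling between libraries. AZIN1, the antizyme inhibitor that releases ODC1 from antizyme, was also higher in relation to OAZ1, with 50.5, 57.9 and 55.7 reads per 100 OAZ1 reads in shLIS1 and 33.8, 38.2 and 35.4 in control. These ratios do depend on transcript composition. With a length and GC offset fitted per library, the log2 ratios were -0.27 for AZIN1, -0.05 for ODC1 and -0.46 for OAZ1, so that AZIN1 lay closer to OAZ1 than without it. Between ODC1 and AZIN1 the groups overlapped, at 63.2 ± 1.81 ODC1 reads per 100 AZIN1 reads in shLIS1 and 66.5 ± 4.23 in control (SD, n = 3 each).

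**Figure D2:**
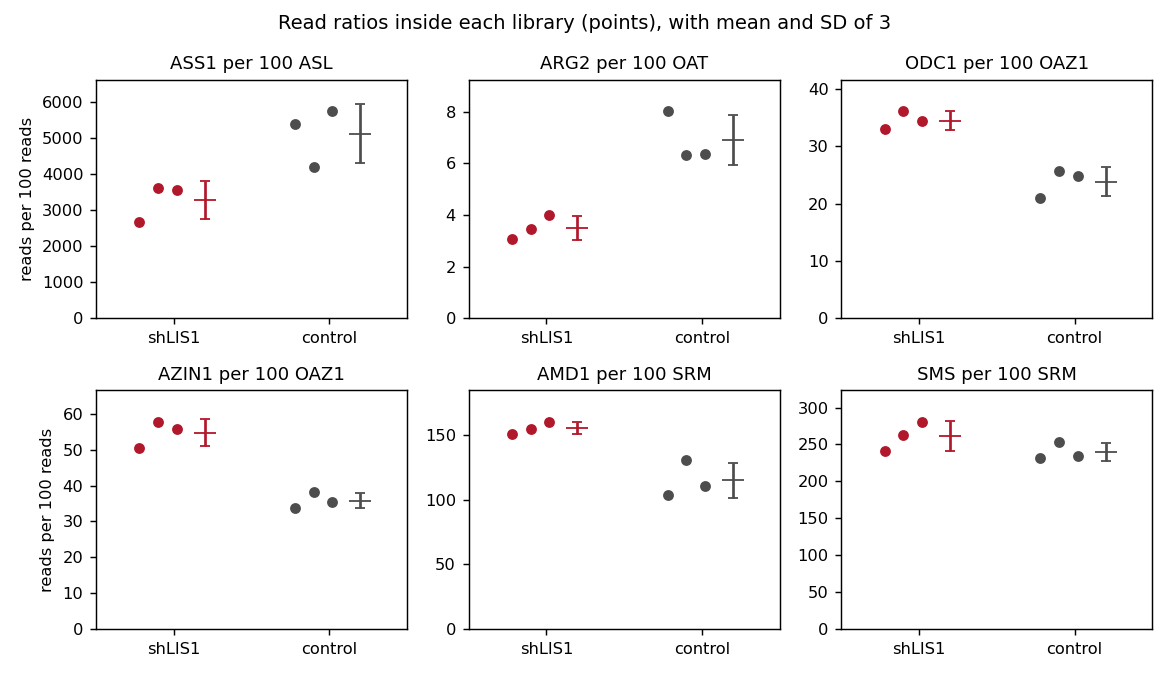
Reads of the gene named first per 100 reads of the gene named second (vertical axis, from 0) inside each of the 3 shLIS1 libraries (left, red) and 3 control libraries (right, grey), with mean and SD. ODC1 and AZIN1 per 100 OAZ1 reads lie higher in every shLIS1 library, and SMS per 100 SRM reads overlaps between the groups.

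The later steps of synthesis, AMD1, SRM and SMS, had log2 ratios nearer to 0 than ASS1, ARG2 and OAZ1. AMD1 (chromosome 6, 110874770 to 110898879, plus strand) decarboxylates S-adenosylmethionine (AdoMet) to the donor of aminopropyl groups. It had 169, 165 and 156 CPM in shLIS1, against 119, 152 and 138 CPM in control. The groups did not overlap, but shLIS1 library 3 and control library 2 were close. The log2 ratio was 0.26 (SE 0.07), and 0.17 without control library 1, the lowest library.

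SRM (chromosome 1, 11054584 to 11060020, minus strand), spermidine synthase, had 112, 107 and 96.9 CPM in shLIS1, against 115, 116 and 125 CPM in control. The log2 ratio was -0.17 (SE 0.06), and the gap between the nearest libraries was small. SMS (chromosome X, 21940709 to 21994837, plus strand), spermine synthase, had 270, 281 and 272 CPM in shLIS1, against 268, 295 and 292 CPM in control, and the groups overlapped. Its log2 ratio was -0.05 (SE 0.05, 95% interval -0.16 to 0.05). SMS gave 262 ± 20.1 reads per 100 SRM reads in shLIS1 and 240 ± 12.04 in control (SD, n = 3 each), again with overlap. The AMD1 ratio to SRM did not overlap, at 155 ± 4.70 reads per 100 SRM reads in shLIS1 and 115 ± 13.9 in control (SD, n = 3 each). With the offset the order turned round, at -0.02 for AMD1, the gene with the lowest GC content of the 10, and 0.18 for SRM, the gene with the highest. ODC1, AMD1, SRM and SMS together summed to 706 ± 22.7 CPM in shLIS1 and 714 ± 49.4 CPM in control (SD, n = 3 each), with overlapping libraries.

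SAT1 (chromosome X, 23783173 to 23786210, plus strand) acetylates spermidine and spermine for export or oxidation. It had 293.4, 311 and 307 CPM in shLIS1, against 293.3, 283 and 272 CPM in control. The groups were apart only by the gap between shLIS1 library 1 and control library 1, which were nearly equal, and the log2 ratio was 0.10 (SE 0.05, 95% interval -0.00 to 0.21).

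In the fit across all genes, 7 of the 10 genes had an adjusted p below 0.05, 6 lower and 1 higher, where 48.4% of all tested genes did, 24.9% lower and 23.5% higher. Groups did not overlap for 8 of the 10 genes and for 56.1% of all tested genes. Since the genes were picked with this comparison in view, nothing is read from those counts. ASL lost the threshold without control library 2 (-0.29), and SRM without shLIS1 library 3 (-0.12) or control library 3 (-0.13) and with DESeq2 (-0.16). ODC1 (-0.18) and SAT1 (0.12) passed it without control library 1. The median log2 ratio was -0.25 over the 10 genes and -0.01 over all tested genes.

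Fold changes in these libraries went with the composition of the transcript, so all values were also taken with the length and GC offset. Over all tested genes with a known transcript, GC-poor genes had higher ratios, with a median log2 ratio of 0.28 for the bottom 20% by GC content and -0.28 for the top 20%. The 10 transcripts spanned 37.99% GC in AMD1 to 63.7% GC in SRM, and 1065 bases in SAT1 to 3438 bases in AMD1. With the offset, the log2 ratios were -1.29 for ARG2, -0.81 for ASS1, -0.46 for OAZ1 and -0.44 for OAT. These 4 kept their direction. AMD1 had -0.02 with the offset and SRM 0.18, so both changed sign, and ASL had -0.14. AMD1 and ASL were then no longer past the threshold, and SRM was past it as higher, which left 5 of the 10 genes past it. ODC1, SMS and SAT1 were at -0.05, -0.05 and 0.05. The median over the 10 genes was -0.09 with the offset. The part of this trend in the differences was not tested further.

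**Figure D3:**
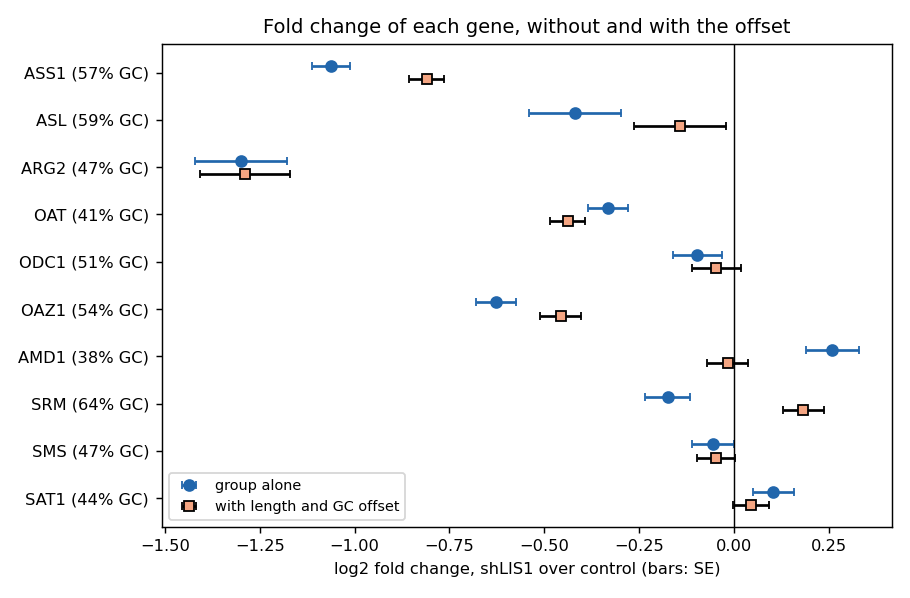
Log2 ratio of shLIS1 over control (horizontal axis) for the 10 genes, with the GC content of each transcript, from the fit on group alone (circles) and with the length and GC offset (squares), and SE as bars. ASS1, ARG2, OAT and OAZ1 stay below 0 in both fits, while AMD1 and SRM cross 0.

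Levels per length of the longest protein-coding transcript put the genes in a similar order in both groups. CPM per kilobase of this transcript was highest for OAZ1, at 411 ± 26.0 in shLIS1 and 635 ± 20.6 in control (SD, n = 3 each, as for the genes that follow). ASS1 was in the third place in shLIS1, at 179 ± 6.35, and in the second place in control, at 374 ± 11.8. SAT1 had 285 ± 8.64 in shLIS1 and 266 ± 9.93 in control, so ASS1 and SAT1 changed places, with no overlap of libraries in either group. SMS followed, with 149 ± 3.14 in shLIS1 and 155 ± 8.21 in control. OAT and SRM came next, and their libraries overlapped in shLIS1 but not in control. ODC1 and AMD1 were lower still, at 61.4 ± 2.58 and 47.5 ± 2.07 in shLIS1 and 65.5 ± 6.40 and 39.6 ± 4.69 in control. ASL and ARG2 were by far the lowest. ASL was above ARG2 in shLIS1, at 5.09 ± 0.716 against 3.00 ± 0.327, while in control they overlapped at 6.82 ± 0.954 and 7.43 ± 0.808. With the union of all exons as length, ASS1 led in control, ahead of OAZ1. In shLIS1 it was then in place 4, behind OAZ1, SMS and SAT1. The order at the top thus depends on the length used.

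The libraries of 1 group were close together for most of these genes. The biological coefficient of variation, the estimated spread between libraries beyond counting, was 0.0545 for SRM, the lowest, and 0.0883 for ASL, the highest, against a median of 0.0696 over all tested genes. ODC1 and AMD1 varied more within control (coefficients of variation 9.76% and 11.8%) than within shLIS1 (4.20% and 4.36%), with control library 1 the lowest for both.

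Other genes of the pathways were taken from a list by role, which was chosen with earlier results of these same libraries known. Their counts and adjusted p-values are therefore given as a description. Of 59 genes listed, 52 passed the filter. Among them 7 rose, 20 fell and 25 did not pass (edgeR adjusted p below 0.05), where 23.5% of all tested genes were higher and 24.9% lower. The median log2 ratio was -0.06. All adjusted p-values are over the 14964 genes.

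Of the 6 tested partners of the urea cycle, 0 rose and 4 fell. The aspartate aminotransferases GOT1 and GOT2, which make the aspartate that ASS1 uses or its precursors, were among them. GOT1 had 152, 156 and 149 CPM in shLIS1, against 189, 195 and 194 CPM in control (log2 ratio -0.34, SE 0.05, adjusted p = 1.2e-05). GOT2 had a log2 ratio of -0.32 (adjusted p = 6.3e-05), and the groups were apart for both. The other 2 were NAGS (log2 ratio -0.54) and SLC25A12 (-0.21). The NAGS call was lost in 6 of 15 alternatives, among them the offset (-0.20, edgeR adjusted p = 0.41). The SLC25A12 call was lost in 2 of 15, without shLIS1 library 2 (edgeR adjusted p = 0.058) or shLIS1 library 3 (edgeR adjusted p = 0.11). The ornithine carrier SLC25A15 was at 35.5 ± 1.34 CPM in shLIS1 and 33.8 ± 2.19 CPM in control (SD, n = 3 each) and did not pass. SLC25A13 did not pass (-0.05), and was called lower with the offset (-0.15, edgeR adjusted p = 0.028). CPS1, the first enzyme of the hepatic cycle, and ARG1, the cytosolic arginase, had 43 and 13 reads in all 6 libraries together and were not tested.

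Among cationic amino acid transporters, SLC7A1, the main importer of arginine, had 329 ± 8.68 CPM in shLIS1 and 325 ± 22.4 CPM in control (SD, n = 3 each) and did not pass. SLC3A2, the heavy chain of several amino acid exchangers, fell (789 ± 34.2 CPM in shLIS1, 1122 ± 5.68 CPM in control, log2 ratio -0.51, adjusted p = 3.1e-08, and -0.28 with the offset). Its light chain SLC7A6, which exchanges arginine for neutral amino acids, rose (log2 ratio 0.45, adjusted p = 0.00033). SLC7A2, at 1.30 CPM in shLIS1 and 0.738 CPM in control, rose (log2 ratio 0.86, adjusted p = 0.048), a call that was lost in 10 of 15 alternatives, with adjusted p up to 0.26.

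In the routes from arginine and ornithine to creatine and proline, the largest fall was GAMT, the last enzyme of creatine synthesis. It had 6.41, 5.996 and 5.24 CPM in shLIS1, against 14.4, 14.3 and 12.5 CPM in control (log2 ratio -1.22, SE 0.12, adjusted p = 6.4e-08). It was the 1 gene of 6 tested in its group to pass. Of 6 proline and glutamate genes, 0 rose and 4 fell, and 2 fell with the offset. PYCR1, which makes proline in mitochondria, had 34.2, 33.4 and 34.6 CPM in shLIS1, against 62.9, 61.0 and 63.4 CPM in control (log2 ratio -0.87, SE 0.07, adjusted p = 1.9e-09, and -0.53 with the offset). ALDH4A1, of proline breakdown, fell with -0.65 (adjusted p = 4.5e-06). ALDH18A1, which makes the precursor of proline and ornithine from glutamate, did not pass (-0.07, SE 0.05).

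Among antizymes and their inhibitors, OAZ2, another antizyme, fell with a log2 ratio of -0.44 (SE 0.07, adjusted p = 4.7e-05). It had 32.5, 34.4 and 31.9 CPM in shLIS1, against 47.7, 43.0 and 43.2 CPM in control, with no overlap. AZIN1 had 258 ± 7.87 CPM in shLIS1 and 261 ± 10.1 CPM in control (SD, n = 3 each, log2 ratio -0.02) and did not pass, but with the offset it was called lower (-0.27, adjusted p = 8.5e-05). OAZ3 and AZIN2 had 51 and 109 reads in all 6 libraries together and did not pass.

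For polyamine oxidation and transport, 1 of 7 tested genes rose and 2 fell. SMOX, spermine oxidase, had 8.77, 10.4 and 8.93 CPM in shLIS1, against 14.8, 13.8 and 13.8 CPM in control (log2 ratio -0.60, adjusted p = 9.8e-05, and -0.31 with the offset). SAT2, a relative of SAT1, fell with -0.32 (adjusted p = 0.023), a call that was lost in 6 of 15 alternatives, among them the offset and every fit without 1 library except control library 3, with adjusted p up to 0.265. ATP13A3, a transporter linked to polyamine uptake, rose with 0.55 (371 ± 9.43 CPM in shLIS1, 254 ± 22.4 CPM in control, SD, n = 3 each, adjusted p = 3.1e-07). With the offset it had 0.08 (adjusted p = 0.20). SLC12A8 did not pass (0.27), and was called higher with the offset (0.29, edgeR adjusted p = 0.042).

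EIF5A, the translation factor that carries hypusine made from spermidine, and DOHH, which finishes hypusine, both fell, with log2 ratios of -0.26 (adjusted p = 0.00020) and -0.27 (adjusted p = 0.0049). With the offset they had 0.01 and 0.11 and neither was called. EIF5A2 and DHPS, the other tested genes of this group, did not pass without the offset. With it, EIF5A2 was called lower (-0.49, edgeR adjusted p = 1.5e-05). DHPS, at 1.54 CPM in shLIS1 and 0.921 CPM in control, was called higher with it (0.99, edgeR adjusted p = 0.024). DHPS had only 149 reads in all 6 libraries together. Its groups overlapped, at 2.18, 1.30 and 1.13 CPM in shLIS1 and 0.641, 0.795 and 1.33 CPM in control. In AdoMet synthesis and the salvage of methylthioadenosine, the by-product of SRM and SMS, 1 of 7 genes rose and 4 fell. MAT2A, which makes AdoMet, rose (log2 ratio 0.22, adjusted p = 0.0024), and its regulatory subunit MAT2B fell (-0.27, adjusted p = 0.00029, and -0.58 with the offset). ADI1, of the salvage pathway, had 91.4, 95.2 and 90.9 CPM in shLIS1, against 116, 126 and 129 CPM in control (log2 ratio -0.42, adjusted p = 2.3e-06). MTAP, which starts salvage, did not pass (0.07, SE 0.06), and was called lower with the offset (-0.35).

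Of 7 transcription factors known to act on ASS1, ODC1 or SAT1, 3 rose and 1 fell. MYC, which activates ODC1, had 393, 362 and 369 CPM in shLIS1, against 260, 273 and 298 CPM in control (log2 ratio 0.43, SE 0.06, adjusted p = 3.8e-06), and all shLIS1 libraries were above all control libraries. HIF1A rose with 0.40 (adjusted p = 1.1e-06), and had 0.05 with the offset and was then not called. NFE2L2 rose with 0.42 (adjusted p = 6.6e-06). ATF4 fell with -0.24 (adjusted p = 0.00072), and had -0.01 with the offset and was then not called. BHLHE40 did not pass (0.17), and was called higher with the offset (0.20, edgeR adjusted p = 0.011). The transcripts of these factors say nothing of binding at the promoters printed above.

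**Figure D4:**
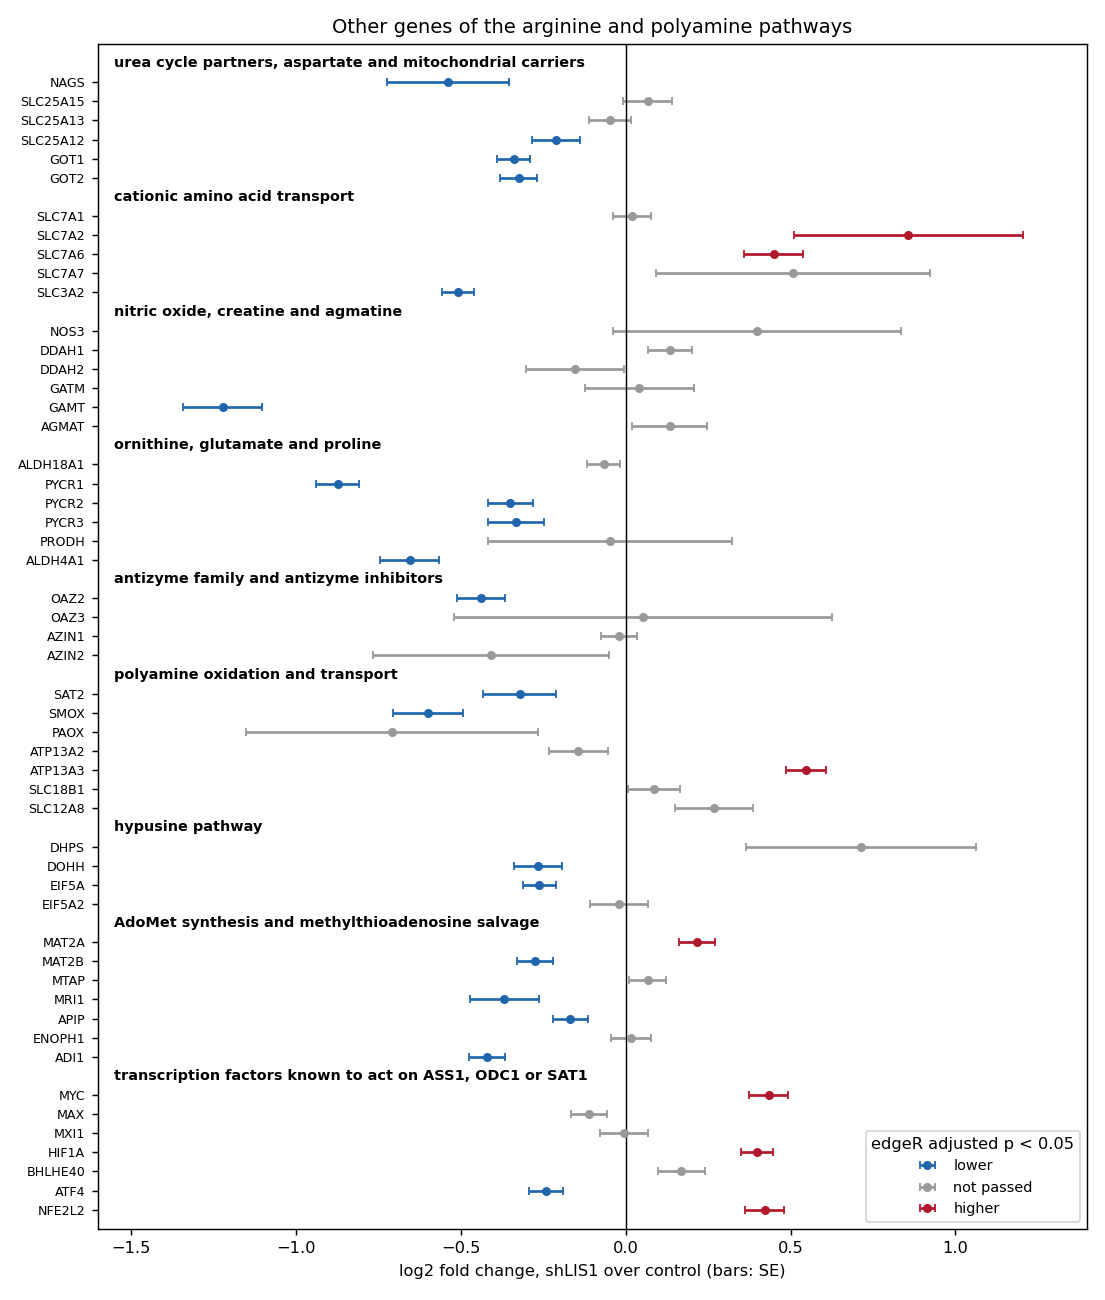
Log2 ratio of shLIS1 over control (horizontal axis) for the 52 tested genes of the wider list, by role, with SE as bars, coloured by edgeR adjusted p below 0.05 and direction. GAMT, PYCR1 and ALDH4A1 lie farthest to the left among the called genes, and the 4 members of the antizyme group include 1 called gene, OAZ2.

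The genes most like AMD1 and ARG2 over the 6 libraries were found among 10533 genes with a symbol and a mean of at least 5 CPM, as those with the smallest distance between log2 CPM centred on each gene's mean. For AMD1 they were EPRS1, EIF3J and OSBPL11, at distances of 0.0415, 0.0581 and 0.0631, with log2 ratios of 0.29, 0.25 and 0.26. For ARG2 they were DHRS3, NUPR1 and SREBF1, at distances of 0.190, 0.209 and 0.227, with log2 ratios of -1.18, -1.17 and -1.31. The likeness is mostly the difference between the groups, which all points of a group share.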

How the data were processed

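Polyadenylated RNA of 3 shLIS1 and 3 control SCC25 libraries was sequenced from strand-marked libraries, per the labels' protocols. The authors deposited unnormalized read counts for each gene. Per the submitters' processing notes, the build was hg 38. The sources used here give no aligner, counter, annotation release or strand setting. GENCODE 29 holds pseudogenes named after ASS1 (11), AMD1 (4), SRM (2) and ASL (1), so reads of these genes may be shared with copies. No such pseudogene had a row in the count table, so reads on the copies could not be counted.

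The test was edgeR 4.0.16 (R 4.3.3): filterByExpr (minimum count 10, minimum total 15), TMM scaling, quasi-likelihood test with robust estimation on group alone, and Benjamini-Hochberg adjustment over all 14964 tested genes. SE was taken from the size of the log2 ratio and the F statistic. The 95% intervals were taken from this SE and a normal distribution, so they may be too narrow. Precision rests on 3 libraries a group. A count of 0 allows up to 3 counts, 0.130 to 0.192 CPM, which covers counting error only. Replicate libraries differed beyond sampling noise (chi-square per gene 2.64 to 10.9 within groups). The procedure was tested on simulated data. The members and lists were chosen with earlier results of these data known. Genes of the wider list are named as up to 2 rises and 2 falls with the smallest p per role. AZIN1, NAGS, SLC25A12, SLC25A13, SLC7A1, SLC25A15, SLC12A8, ALDH18A1, MTAP, NFE2L2, BHLHE40, EIF5A2 and DHPS were named after values were seen. So were the untested genes, the uncalled genes whose sign changed with the offset, and the ODC1 promoter. PRODH is on 2 rows and the reference chromosome row was used.

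Alternatives were DESeq2 1.42.0, limma-voom (limma 3.58.1), RLE or upper quartile scaling, filtering at 1 CPM in 3 libraries, or no filter, estimation that was not robust, a replicate block, each library left out, and an offset over log2 transcript length and GC content smoothed with mgcv 1.9.3 (basis size 6 per axis, GENCODE 29, 14491 genes). The union of exons as length was added after the data were seen. Promoter sequences are RefSeq's; proteins were not analysed here.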

Additional observations from a re-analysis of the deposited data

How the results depend on the processing

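The median log2 fold change of the 10 genes was -0.094 with the length and GC offset, against -0.25 without it. Among genes that were called with or without it, the offset reversed AMD1 (-0.017), SRM (0.18), DOHH (0.11), EIF5A (0.0071) and MTAP (-0.35), and the cause was not tested. DDAH1 (-0.12), DDAH2 (0.18) and GATM (-0.025), not called either way, also changed sign with it. So did PRODH (0.26), ATP13A2 (0.10), SLC18B1 (-0.053), OAZ3 (-0.083) and ENOPH1 (-0.029), likewise not called either way. ASS1, ASL, ARG2, OAT, ODC1, OAZ1, SMS and SAT1 kept their sign in all 15 alternatives, ASS1 between -1.10 and -0.81, ARG2 between -1.38 and -1.21 and OAZ1 between -0.68 and -0.46. Leaving out 1 library gave 3011 to 3615 genes higher and 3034 to 3733 lower, 6 to 9 genes of the wider list higher and 17 to 19 lower, a median over the 10 genes of -0.28 to -0.21, and PAFAH1B1 of -0.53 to -0.48. With the length and GC offset, PAFAH1B1 had -0.81 (SE 0.04), outside that range. The replicate numbers did not pair the libraries, since correlations of same-numbered deviations were -0.04, 0.03 and -0.04 and 2 of 6 libraries correlated best with their own number. With the replicate block, SLC7A2 lost its call (adjusted p = 0.057, edgeR), and 3484 genes were higher and 3682 lower, against 3518 and 3731. Depth limits ARG2 and ASL, with 110 to 340 reads per library.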

Other observations

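Nitric oxide synthases were near the limit of detection. NOS2 had 15 reads in all 6 libraries together and NOS3 had 64, and NOS3 did not pass (log2 fold change 0.40, SE 0.44). Of the enzymes that break down the inhibitors of nitric oxide synthase, DDAH1 had 66.7 ± 1.53 CPM in shLIS1 and 60.7 ± 5.08 CPM in control (SD, n = 3 each) and DDAH2 had 4.58 ± 0.437 CPM in shLIS1 and 5.09 ± 0.160 CPM in control (SD, n = 3 each), and neither passed. GATM, which takes arginine into the first step of creatine synthesis, was at 4.81 ± 0.670 CPM in shLIS1 and 4.67 ± 0.737 CPM in control (SD, n = 3 each) and did not pass.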
